A study of Homo sapiens with 4 samples.

Results

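The EGR, NAB and NR4A genes were described across 4 RNA-seq libraries of Jurkat T cells. The 9 genes were chosen by name and are EGR1, EGR2, EGR3 and EGR4, the corepressors NAB1 and NAB2, and NR4A1, NR4A2 and NR4A3. All 9 were found among the 50868 genes that the deposited files list. Jurkat is an established human line that was derived from a T-cell leukemia. The cells were kept for 24 h with DMSO, with 0.5 μM JQ1, with DMSO and 150 ng/ml PHA, or with 0.5 μM JQ1 and 150 ng/ml PHA. JQ1 is an inhibitor of BET bromodomain proteins, and PHA (phytohemagglutinin) is a plant lectin that activates T cells. Each condition had 1 library, so no difference has a replicate check, no test between conditions was made, and every interval covers counting error only.

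The EGR proteins are zinc finger transcription factors of the immediate-early class, which means that their genes are switched on within minutes to hours of a stimulus without new protein synthesis. In T cells they lie downstream of the T-cell receptor, through ERK kinases and serum response factor (SRF), and EGR2 and EGR3 are known for roles in T-cell unresponsiveness. NAB1 and NAB2 bind EGR proteins and repress their activity, and NAB2 is itself known as an EGR target, which forms a feedback loop. The NR4A proteins are nuclear receptors that act without a known hormone ligand, are induced by T-cell receptor signals, and are tied to the exhausted state of T cells. The EGR and NR4A genes belong to the early response, whereas the libraries here were made at a single time of 24 h.

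The promoters of the genes were read first, because EGR1 and EGR2 were high in the same libraries and because EGR proteins are known to bind the NAB2 promoter. The promoter windows are RefSeq sequences on GRCh38.p14 that hold 250 bases before each transcription start and 50 from it onward. Of the 9 genes, 7 had a window, with 12 starts in all, and EGR3 and NR4A2 had none. Positions are counted from the start, upstream as negative numbers. A CArG box, the element that SRF binds, was present in the EGR1 window at 2 positions, -105 and -83, and in the window of the most downstream EGR2 start at -71. Over all 35116 promoter windows, 1.29% hold a CArG box. The box at -83 of EGR1 and that at -71 of EGR2 have the same letters. The CArG boxes are in capitals in the stretches from -140 to -51, on chr5:138465339-138465428 (plus strand) for EGR1 and chr10:62816417-62816506 (minus strand) for EGR2, both of which are outside the exons of GENCODE v44.
EGR1: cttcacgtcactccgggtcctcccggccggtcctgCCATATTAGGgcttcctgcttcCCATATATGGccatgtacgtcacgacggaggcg
EGR2: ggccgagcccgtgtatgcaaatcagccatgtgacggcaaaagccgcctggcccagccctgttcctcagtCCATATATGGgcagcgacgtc

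The promoters of both NAB genes hold a binding site of EGR proteins, which was searched on both strands in the spellings GCGTGGGCG and GCGGGGGCG. The former is in 0.795% of all promoter windows and the latter in 5.07%, and 5.77% hold at least 1 of them. The NAB2 window holds the second spelling once, at -62, and the NAB1 windows of the first and second start share a site of the first spelling and 2 overlapping sites of the second spelling on the opposite strand. The sites are in capitals in 30 bases of each, on chr12:57089039-57089068 for NAB2, of which 26 bases are exonic in GENCODE v44, and on chr2:190648848-190648877 and chr2:190648897-190648926 for NAB1, all written on the plus strand.
NAB2: ccctgtgcgtcctGCGGGGGCGgaggcgcg
NAB1, upstream stretch: gcggcCGCCCCCGCCCCCGCccggcggcgg
NAB1, downstream stretch: cactcggccgcGCGTGGGCGggagccggag

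The cyclic AMP response element was searched as its core, TGACG, which is in 24.6% of all windows, and as the full site TGACGTCA, which is in 1.85%. NR4A3 held 4 cores, of which 3 lie close together. They are shown because the library order of NR4A3 was unlike that of EGR1, EGR2 and EGR3, as was that of NAB1 and NR4A1. Cores are not particular to NR4A3, as the windows of EGR1, EGR2, EGR4 and NAB1 held them too. The stretch runs from -120 to -71, on chr9:99821765-99821814 (plus strand), with the cores in capitals.
NR4A3: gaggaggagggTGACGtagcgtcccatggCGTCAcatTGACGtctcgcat

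None of the 12 windows held the full site, the NR4A binding element AAAGGTCA (1.22% of all windows) or the AP-1 site TGACTCA (4.95%), and the NR4A1 windows held none of the motifs searched. A match is a description of letters, and binding was not measured in these data.

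The libraries held between 18620954 and 19685401 counts, and 3 counts, the floor used for a gene without reads, are 0.152 to 0.161 CPM (counts at an equal library total). The treatments were checked on 2 genes. HEXIM1, a gene that BET inhibitors raise, had 2450 counts in DMSO, 7687 in JQ1, 2451 in DMSO + PHA and 6994 in JQ1 + PHA. CD69, a surface marker of T-cell activation, had 67, 51, 1359 and 198 counts in the same order. All 14 T-cell markers were detected in every library. Their summed level was 2372 CPM in DMSO, 1401 in JQ1, 3017 in DMSO + PHA and 1576 in JQ1 + PHA. The sum thus moved in the same direction as most of the genes described here, and its part in their differences was not tested. The single markers did not all move with it. From DMSO to DMSO + PHA, TRAC rose most, from 534 to 7393 counts. CD3E (8670 and 8355 counts) and LCK (8429 and 8127) were lower there, and the other markers were higher. TRBC1 was higher with JQ1 (9312 counts) than with DMSO (8072). Of 15 markers of other blood cells, between 3 and 5 had more than 3 counts in a library. Among them, CD79A had 343, 51, 304 and 46 counts, and NCAM1 had 41, 57, 37 and 56. In bulk RNA, fewer cells that express a gene and less RNA of it per cell cannot be told apart.

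EGR1 (ENSG00000120738, chromosome 5 from 138465490 to 138469315 in the files, on GRCh38) had the largest ratio with PHA of the 9 genes in DMSO-treated cells, with an interval that overlaps that of EGR2. It had 29 counts in DMSO, 25 in JQ1, 2464 in DMSO + PHA and 400 in JQ1 + PHA, which are FPKM of 0.491, 0.405, 39.9 and 6.85. The DMSO + PHA library was thus far above all others, the JQ1 + PHA library stood between, and the libraries without PHA did not differ beyond counting error. With PHA, EGR1 was 81.2-fold higher than with DMSO alone (95% exact interval 56.4 to 122). In the presence of JQ1, PHA gave a level 16.9-fold higher than JQ1 alone (11.3 to 26.4). Among cells with PHA, EGR1 was 5.83-fold lower with JQ1 (5.24 to 6.49), and without PHA the ratio of JQ1 to DMSO was -0.28 on the log2 scale, with an interval from -1.11 to 0.54.

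EGR2 (ENSG00000122877), which together with EGR3 restrains T-cell responses, was close to undetected without PHA. It had 2 counts in DMSO, 1 in JQ1, 157 in DMSO + PHA and 34 in JQ1 + PHA. The level with DMSO + PHA was 7.98 CPM and that with JQ1 + PHA 1.83 CPM, a 4.37-fold lower level (3.0 to 6.53). The ratio to the library without PHA was 75 with DMSO (20.4 to 625) and 35.9 with JQ1 (6.03 to 1460), and the width of these intervals comes from the 1 or 2 counts in the denominator. No ratio of JQ1 to DMSO is given, since both libraries were at or below 3 counts. The locus of EGR2 in the files runs from 62811996 to 62919900 of chromosome 10, past the end of the gene at 62819167 in GENCODE v44, so the counts of this gene may hold reads from outside it.

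EGR3 (ENSG00000179388) followed the same order. Its counts were 11 in DMSO, 5 in JQ1, 489 in DMSO + PHA and 60 in JQ1 + PHA. It was 42.5-fold higher with PHA in DMSO-treated cells (23.5 to 85.7) and 12.7-fold higher in JQ1-treated cells (5.14 to 40.5). With PHA it was 7.71-fold lower with JQ1 (5.89 to 10.3). Without PHA the log2 ratio of JQ1 to DMSO was -1.20, with an interval from -3.08 to 0.44, so a difference was not detectable at this depth. EGR4 (ENSG00000135625), the least expressed of the family, had 1, 0, 15 and 2 counts, and only the DMSO + PHA library was above the floor of 3 counts. Its ratio with PHA was 14.3 in DMSO-treated cells (2.21 to 604), and with PHA it was 7.09-fold lower with JQ1 (1.65 to 63.9). The order of the libraries was therefore alike for EGR1, EGR2 and EGR3, with DMSO + PHA highest, JQ1 + PHA second, and no detectable difference between DMSO and JQ1.

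NAB1 (ENSG00000138386), a corepressor that is present at rest in many cells, differed little among the libraries. It had 817 counts in DMSO, 996 in JQ1, 1163 in DMSO + PHA and 1086 in JQ1 + PHA. With PHA it was 1.36-fold higher in DMSO-treated cells (1.24 to 1.49) and 1.15-fold higher in JQ1-treated cells (1.06 to 1.26). The log2 ratio of JQ1 to DMSO was 0.22 without PHA (0.09 to 0.36) and -0.019 with PHA (-0.14 to 0.10). The libraries with PHA were thus the highest and did not differ beyond counting error, and the DMSO library was the lowest. The last ratio turned to between 0.0012 and 0.039 when centred on the median gene or scaled by TPM, TMM factors or DESeq2 size factors, so it has no firm direction.

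NAB2 (ENSG00000166886) had 139 counts in DMSO, 85 in JQ1, 592 in DMSO + PHA and 203 in JQ1 + PHA. Unlike NAB1, it differed in every comparison beyond counting error, and its order was DMSO + PHA, JQ1 + PHA, DMSO and JQ1 from highest to lowest. It was 4.07-fold higher with PHA in DMSO-treated cells (3.38 to 4.93) and 2.52-fold higher in JQ1-treated cells (1.95 to 3.29). It was 2.76-fold lower with JQ1 in the presence of PHA (2.35 to 3.25) and 1.71-fold lower without PHA (1.30 to 2.27). NAB2 overlaps STAT6 on the opposite strand by 69 bases in GENCODE v44, by the ends of both genes. The use of strand in counting is not given in the sources used here. STAT6, named here only for this overlap and after its values were seen, had 2417, 1472, 3028 and 1612 counts in the same order, and it was 1.20-fold higher with PHA in DMSO-treated cells (1.13 to 1.26) and 1.78-fold lower with JQ1 in the presence of PHA (1.67 to 1.89). The part of STAT6 reads in the NAB2 values was not tested.

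NR4A1 (ENSG00000123358), also called Nur77 and widely used as a reporter of T-cell receptor signals, had 60 counts in DMSO, 33 in JQ1, 210 in DMSO + PHA and 46 in JQ1 + PHA. The DMSO + PHA library was the highest. The interval of the JQ1 + PHA level overlapped those of both DMSO and JQ1, whereas JQ1 was lower than DMSO beyond counting error. It was 3.35-fold higher with PHA in DMSO-treated cells (2.50 to 4.53), whereas in JQ1-treated cells the log2 ratio was 0.56 with an interval from -0.12 to 1.25. With PHA it was 4.32-fold lower with JQ1 (3.13 to 6.08), and without PHA 1.90-fold lower (1.22 to 3.0). NR4A2 (ENSG00000153234) was not detected in 3 libraries, which allows a level of up to 0.159 CPM with DMSO and 0.152 CPM with JQ1 or DMSO + PHA, and had 1 count with JQ1 + PHA. No ratio of NR4A2 is given.

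NR4A3 (ENSG00000119508) had an order unlike that of EGR1, EGR2 and EGR3, in that JQ1 was above DMSO. NAB1, also with JQ1 above DMSO, and NR4A1, with DMSO above JQ1 + PHA by its values alone, were unlike it too. NR4A3 had 7 counts in DMSO, 25 in JQ1, 56 in DMSO + PHA and 21 in JQ1 + PHA. JQ1 alone gave a level 3.41-fold higher than DMSO (1.44 to 9.35), while in the presence of PHA the level was 2.52-fold lower with JQ1 (1.5 to 4.39). PHA gave a level 7.65-fold higher in DMSO-treated cells (3.48 to 19.9), and in JQ1-treated cells the log2 ratio was -0.17 (-1.08 to 0.72). The JQ1 and JQ1 + PHA libraries were neighbours in the order and did not differ beyond counting error. All 4 values rest on 56 counts or fewer.

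**Figure D1:**
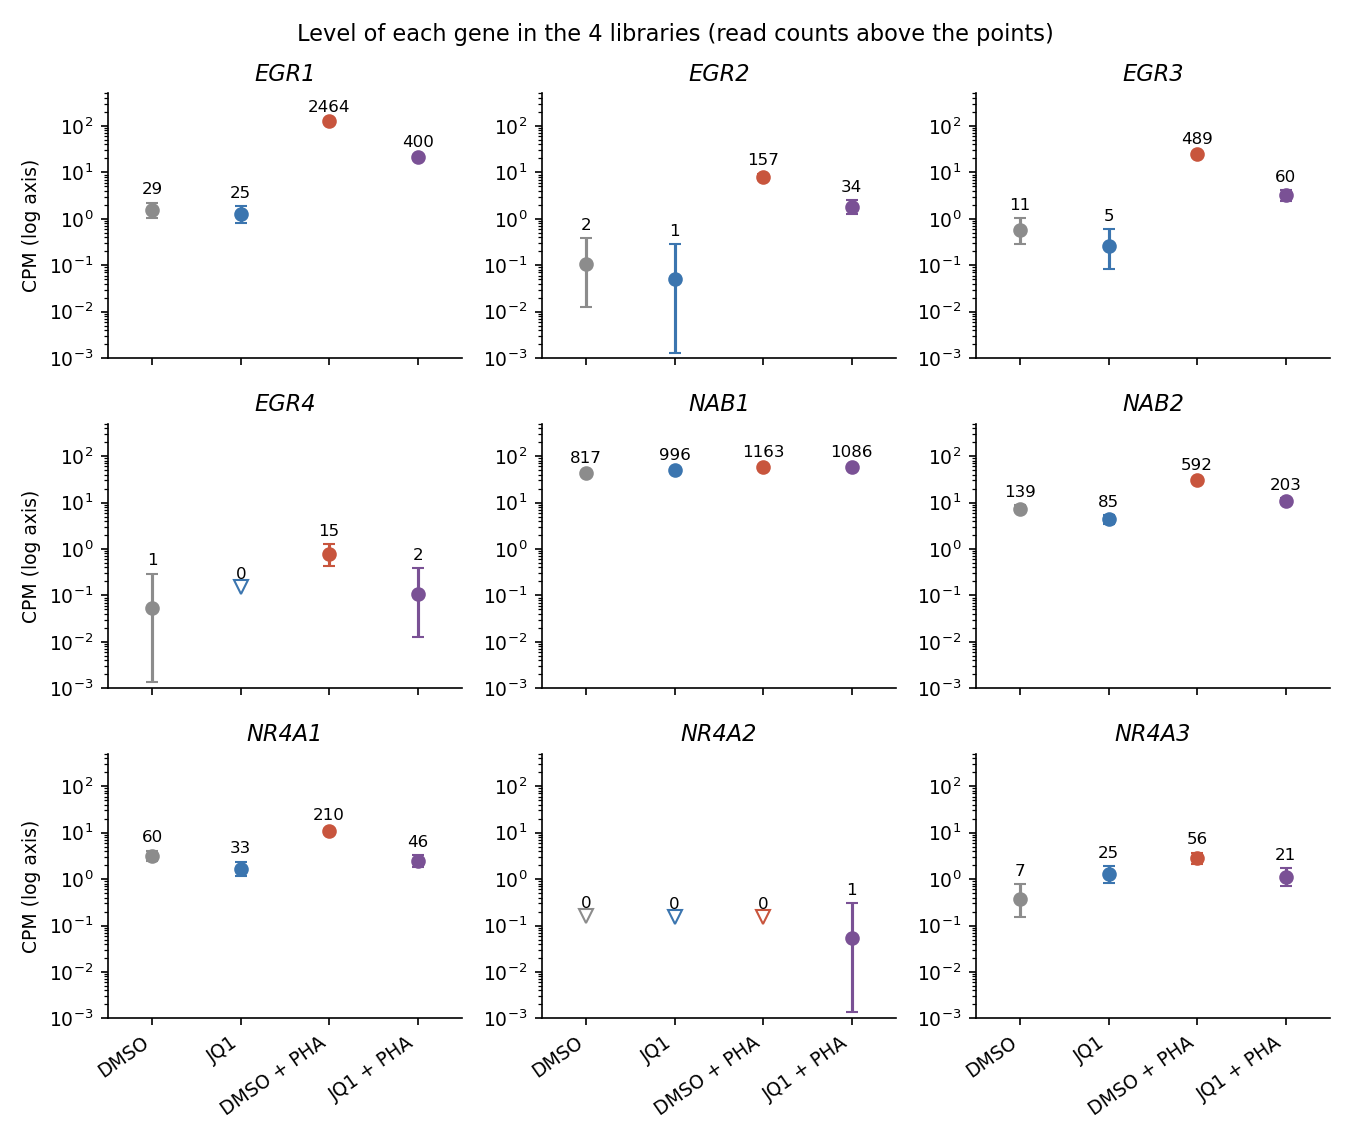
Level of each of the 9 genes in the 4 libraries, in CPM on a log axis, with exact 95% Poisson intervals, the read counts written above the points, and open triangles at the level of 3 counts where no read was counted. The DMSO + PHA library is the highest for every gene but NR4A2, although for NAB1 by less than counting error from JQ1 + PHA, and NAB1 lies between 43.4 and 59.1 CPM throughout.

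Put together by comparison, 8 genes had a ratio between DMSO + PHA and DMSO, and for all 8 it was higher than 1 with an interval that excluded 1. Over all genes with more than 3 counts in at least 1 library of the pair, as for the members, the interval lay above 1 for 20.6%. A gene with 3 counts or fewer in 1 library could enter only through the other, which sets its direction. This was so for EGR2 and EGR4 with PHA in DMSO-treated cells and for EGR2 with PHA in JQ1-treated cells. It was also so for EGR4 with JQ1 in the presence of PHA, and these directions are no support of their own. Between JQ1 + PHA and JQ1, 7 genes had a ratio, 5 with the interval above 1 and 2, NR4A1 and NR4A3, with an interval that included 1, and the share of all genes with the interval above 1 was 12.5%. Between JQ1 + PHA and DMSO + PHA, 7 of 8 genes were lower, against 33.8% of all genes, and NAB1 had an interval that included 1. Between JQ1 and DMSO, 6 genes had a ratio, of which NAB1 and NR4A3 were higher, against 28.2% of all genes, NAB2 and NR4A1 were lower, against 33.1%, and EGR1 and EGR3 had intervals that included 1. The comparisons share libraries in pairs, so these counts are not independent of each other.

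**Figure D2:**
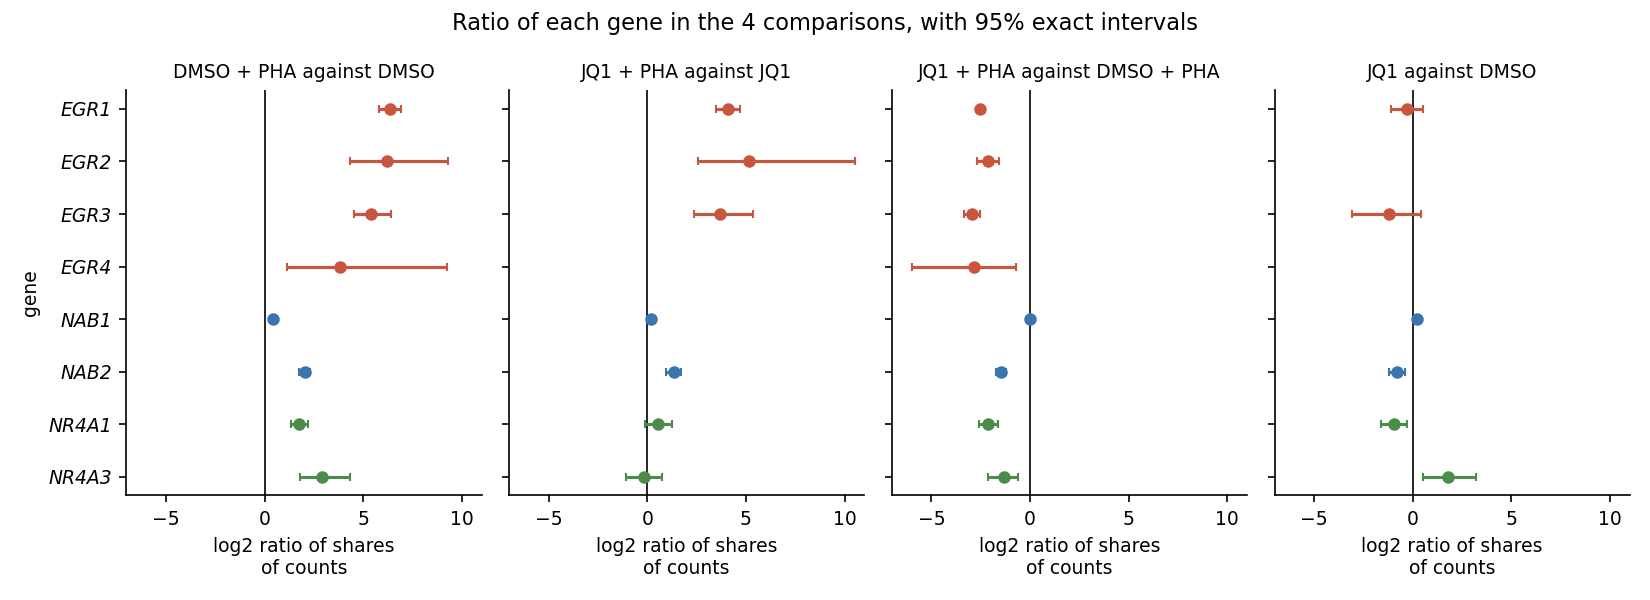
Log2 ratios of the counts, each taken as a share of its library, for 8 genes in the 4 comparisons, with 95% exact intervals. Ratios with PHA in DMSO-treated cells are all above 0, 7 of 8 ratios of JQ1 + PHA to DMSO + PHA have intervals below 0, and a gene without a point had 3 counts or fewer in both libraries.

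To set the genes against the whole transcriptome, the log2 ratio of FPKM was taken with 0.1 added, over the 11503 genes whose mean FPKM reached 1, and a gene past 2-fold was counted. Of the 9 genes, 3 passed this filter, namely EGR1, NAB1 and NAB2. EGR1 passed only through its libraries with PHA, so its calls for a change with PHA and its place are no support of their own. EGR1 and NAB2 were past 2-fold and higher with PHA in DMSO-treated cells, where 2.1% of all genes were, and in JQ1-treated cells, where 1.04% were. EGR1 and NAB2 were also past 2-fold and lower with JQ1 in the presence of PHA, against 8% of all genes. Of the 14 T-cell markers, 9 were past 2-fold and lower there, and 2, CD28 and TRAC, were past 2-fold and higher with PHA in DMSO-treated cells. Without PHA none of the 3 was past 2-fold, against 5.22% of all genes on the higher and 8.65% on the lower side. Ordered by the log2 ratio of DMSO + PHA to DMSO, EGR1 stood at place 2 of the 11503 genes, NAB2 at place 60 and NAB1 at place 997.

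The FPKM of most of these genes rested on a length greater than that of their exons. The length by which the authors divided was 1.0 times the merged exon length of GENCODE v44 for EGR1 but 1.83 times for EGR2, 2.30 times for NAB1, 2.00 times for NAB2 and 2.93 times for NR4A1. With CPM in place of FPKM, again with 0.1 added and a mean of at least 1, 7 of the 9 genes were among 13765 that passed. This was chosen after the data had been seen, and EGR2, EGR3 and NR4A3 pass largely through their libraries with PHA, so their calls are no support of their own. With PHA, 6 of the 7, all but NAB1, were past 2-fold and higher in DMSO-treated cells, against 3.28% of all genes, and 4, the EGR genes and NAB2, in JQ1-treated cells, against 1.58%. In the presence of PHA, EGR1, EGR2, EGR3, NAB2, NR4A1 and NR4A3 were lower with JQ1, against 12.0% of all genes. Without PHA, NR4A3 was past 2-fold and higher, against 6.41% of all genes, and none was lower, against 12.1%. By the CPM ratio of DMSO + PHA to DMSO, EGR1 stood at place 3 of 13765, EGR2 at place 9, EGR3 at place 12, NR4A3 at place 58, NAB2 at place 113 and NR4A1 at place 153.

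**Figure D3:**
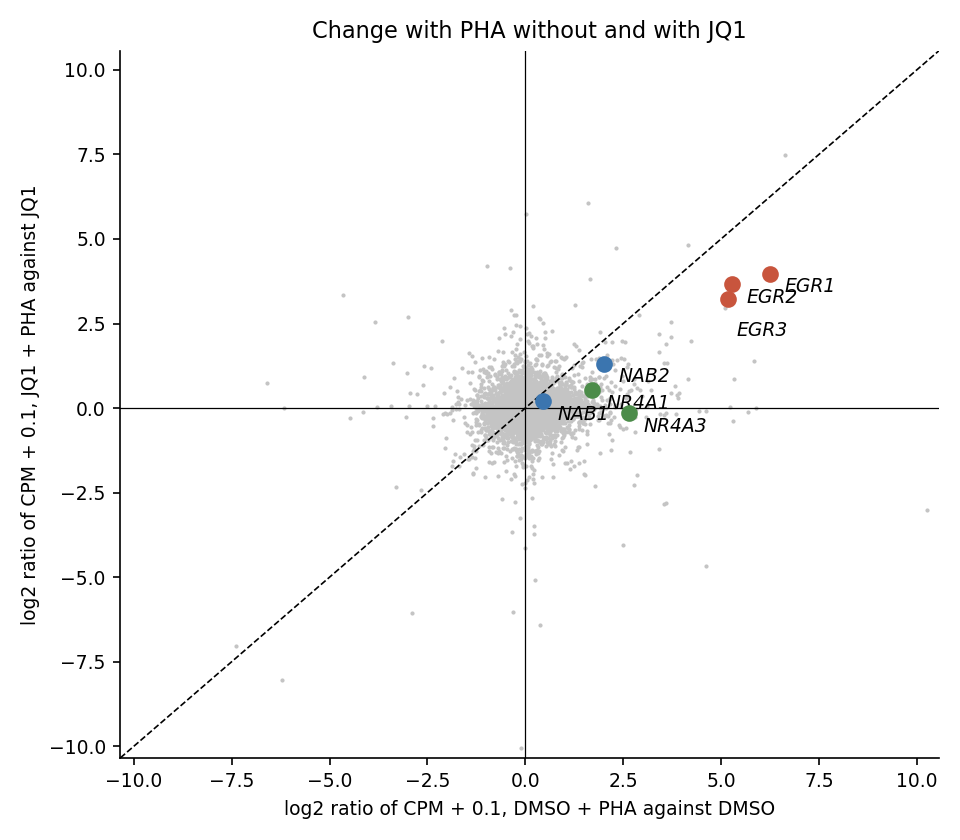
Change with PHA in JQ1-treated cells against that in DMSO-treated cells, as log2 ratios of CPM with 0.1 added, for 13765 genes (grey points) with 7 EGR, NAB and NR4A genes in colour and equal changes on the dashed line. All 7 lie below the line, as do 51.4% of the 13765 genes, and NR4A3 lies at 2.64 on the horizontal and -0.16 on the vertical axis.

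The change with PHA in JQ1-treated cells was then set against that in DMSO-treated cells, as the log2 of the ratio of both ratios of counts with 0.5 added to each count. It was computed for the 7 genes with a count in every library. All 7 values were below 0, against 51.2% of all genes with a count in every library, and for 6 the interval (Wald, counting error only) was below 0, against 16.6%. The value was -2.27 for EGR1 (-3.05 to -1.49), -1.81 for EGR3 (-3.32 to -0.29), -3.01 for NR4A3 (-4.39 to -1.64) and -1.18 for NR4A1 (-1.94 to -0.42). It was nearer to 0 for the corepressors, -0.69 for NAB2 (-1.14 to -0.24) and -0.24 for NAB1 (-0.42 to -0.06). For EGR2 it was -1.31, with an interval from -4.28 to 1.66 that rests on 1 and 2 counts. In CPM, EGR1 gained 123.6 with PHA in DMSO-treated cells and 20.2 in JQ1-treated cells, which is 16.3% of the former. The gain in JQ1-treated cells was 12.2% of that in DMSO-treated cells for EGR3, 22.6% for EGR2, 29.0% for NAB2 and 10.6% for NR4A1. For NAB1 it was 49.2%. These percentages have no interval. For NR4A1 the log2 ratio with PHA in JQ1-treated cells had an interval from -0.12 to 1.25, so a gain there was within counting error.

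The genes were compared with each other per length, as CPM per kb of merged exons of GENCODE v44. The balance of EGR factors and their corepressors differed among the libraries. With DMSO, NAB1 was at 8.89 and EGR1 at 0.491 CPM per kb, so that NAB1 was 18.1 times EGR1, and with JQ1 it was 25.6 times EGR1. With DMSO + PHA the order turned, with EGR1 at 39.9 and NAB1 at 12.1, which is 3.30 times NAB1. With JQ1 + PHA, NAB1 was again higher, at 11.9 against 6.85 for EGR1, a ratio of 1.74. By the deposited FPKM, EGR1 was 1.32 times NAB1 in that library, so the order in it depends on the length used. Between the corepressors, NAB1 was 3.44 times NAB2 with DMSO and 6.86 times with JQ1, and the levels were close with DMSO + PHA, at 12.1 and 10.5.

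Within the EGR family, EGR1 made up between 74.6% and 86.3% of the summed level per kb in the 4 libraries. EGR3 made up 10.4% with DMSO + PHA and EGR2 4.55%. The summed EGR level was 0.659 CPM per kb in DMSO, 0.469 in JQ1, 47.3 in DMSO + PHA and 8.03 in JQ1 + PHA. The summed NR4A level was 0.496, 0.431, 1.91 and 0.530 in the same order. Per kb it was below the EGR sum in each library, and furthest below it in the libraries with PHA. Without PHA this order depends on the length used. In CPM the NR4A sum was above the EGR sum there, at 3.56 against 2.29 with DMSO and 2.95 against 1.58 with JQ1. NR4A1 made up 88.1% of the NR4A level with DMSO, and NR4A3 46.7% with JQ1, against 11.9% with DMSO.

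**Figure D4:**
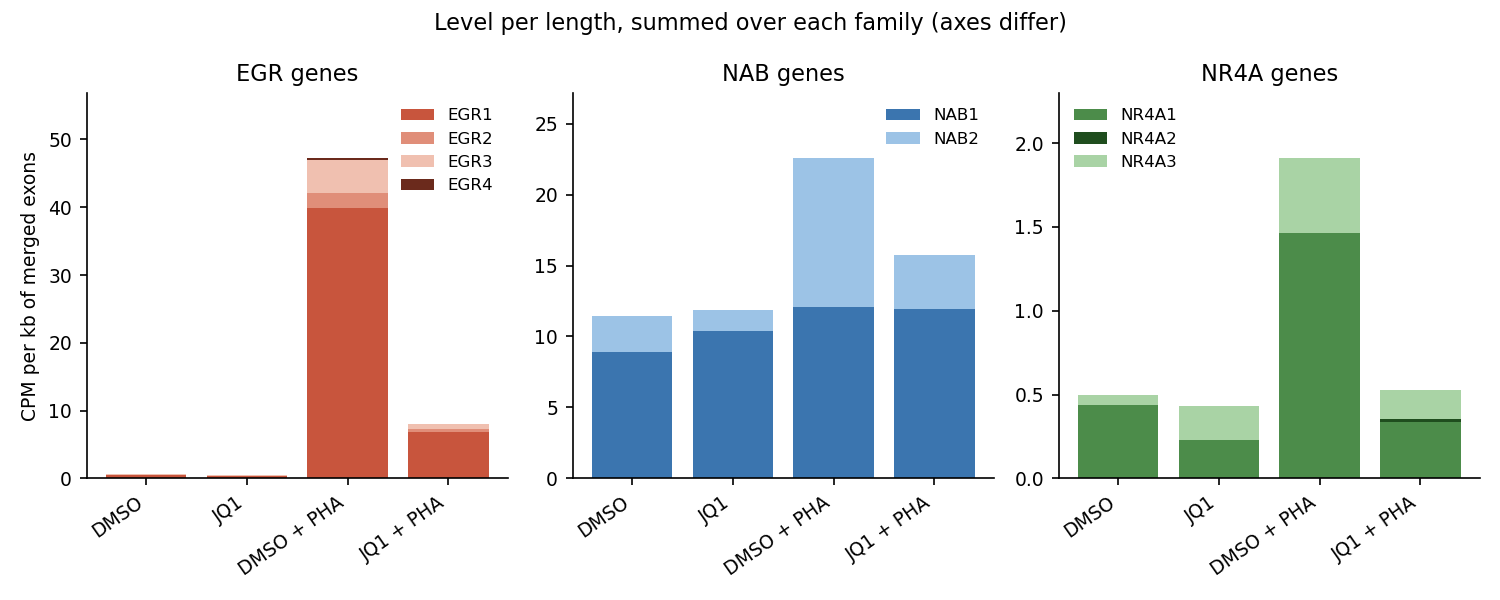
Level per length of the EGR, NAB and NR4A genes in the 4 libraries, as stacked bars in CPM per kb of merged exons, each family on its own axis. The EGR sum is 47.3 with DMSO + PHA and 8.03 with JQ1 + PHA, while NAB1 stays between 8.89 and 12.1.

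Other genes of the pathway were taken from lists. Of 40 other immediate-early genes, 26 passed the FPKM filter. With PHA in DMSO-treated cells 5 of them, IER3, KLF2, ZFP36L1, DUSP2 and CD69, were past 2-fold and higher, against 2.1% of all genes, and none was lower, with a median log2 ratio of 0.44 over the list and -0.01 over all genes. DUSP2, a phosphatase that acts on MAP kinases, had 137 counts in DMSO, 42 in JQ1, 533 in DMSO + PHA and 114 in JQ1 + PHA. IER3 had 49, 155, 259 and 322 counts, and was thus highest with JQ1 + PHA. In the presence of PHA, 2 of the 26 genes, DUSP2 and CD69, were lower with JQ1, where 8% of all genes were, and 5, JUN, BTG1, PIM1, MYC and PPP1R15A, were higher, where 3.69% of all genes were. PIM1, a kinase, had 81 counts in DMSO, 327 in JQ1, 99 in DMSO + PHA and 318 in JQ1 + PHA. Without PHA, 7 of the 26 genes were past 2-fold and higher with JQ1, against 5.22% of all genes. On the lower side there was 1, against 8.65%, and the median log2 ratio was 0.44. FOS, which was named after its values were seen, had 2, 9, 52 and 43 counts, and the log2 ratio for JQ1 + PHA over DMSO + PHA was -0.19 (-0.81 to 0.42). The immediate-early list as a whole was therefore not lower with JQ1 in the presence of PHA, with a median of 0.14 against -0.02 for all genes.

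Genes that lie upstream of EGR1 were read next. Of 26 genes of the ERK pathway and of SRF with its partners, 25 passed the filter, and with PHA in DMSO-treated cells none was past 2-fold and higher, against 2.1% of all genes. ELK3 and MKL2, both partners of SRF, were past 2-fold and lower, against 1.19% of all genes, with 333 and 149 counts of ELK3 and 1604 and 748 counts of MKL2 in the DMSO and DMSO + PHA libraries. In the presence of JQ1, MKL2 had 2038 counts without PHA and 1988 with PHA. MAPK3, the gene of ERK1, had 691 counts in DMSO, 274 in JQ1, 594 in DMSO + PHA and 275 in JQ1 + PHA, and MAP2K1, the gene of MEK1, had 982, 1722, 1064 and 1772. With PHA, MAPK3 was thus 2.04-fold lower and MAP2K1 1.76-fold higher with JQ1. The median of the list for JQ1 + PHA against DMSO + PHA was 0.26, against -0.02 for all genes.

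Reported EGR targets followed. Of 14, 7 passed the filter, and none of them was past 2-fold with PHA in either direction, against 2.1% of all genes on the higher side in DMSO-treated and 1.04% in JQ1-treated cells, with a median log2 ratio of 0.40 in DMSO-treated and 0.07 in JQ1-treated cells. CBLB, a ubiquitin ligase that restrains T-cell receptor signals, had 314 counts in DMSO, 684 in JQ1, 562 in DMSO + PHA and 730 in JQ1 + PHA. NDRG1 had 215, 636, 340 and 655, ID3 884, 3339, 1219 and 3383, and CDKN1B, a cell cycle inhibitor, 1112, 3079, 1257 and 2792. These 4 were thus highest in a library with JQ1, where EGR1, EGR2 and EGR3 were below their level with DMSO + PHA. Among the targets under the filter, chosen after their values were seen, CRTAM, a surface receptor, had 1, 0, 43 and 2 counts, which is the order of EGR4. FASLG (3, 0, 7 and 1), TNF (1, 1, 9 and 0) and LAG3 (4, 5, 10 and 7) were also highest with DMSO + PHA, on 10 counts or fewer. CDKN1A was highest with JQ1 + PHA and CD44 with DMSO. IL2 had no count in any library.

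Of 12 genes tied to NR4A proteins in T cells, 4 passed the filter, and 3 of them, PDCD1, TOX and IKZF2, were past 2-fold and higher with PHA in DMSO-treated cells, against 2.1% of all genes. PDCD1 passed the filter only through its DMSO + PHA library, so its call is no support of its own. PDCD1, the gene of the PD-1 receptor, had 8 counts in DMSO, 1 in JQ1, 356 in DMSO + PHA and 20 in JQ1 + PHA. It was 42.5-fold higher with PHA in DMSO-treated cells (21.4 to 99.3) and 16.8-fold lower with JQ1 in the presence of PHA (10.7 to 27.9). TOX, a nuclear factor of exhausted T cells, had 2666, 4249, 6351 and 4733 counts, and IKZF2 had 6921, 15279, 17249 and 15296. In both, DMSO was lowest and DMSO + PHA highest, as in NR4A3 and NAB1. At an equal library total both were higher with JQ1 + PHA than with JQ1, as was NAB1. NR4A3 was lower there, though not beyond counting error. BATF, an AP-1 factor, had 148, 45, 108 and 24 counts and was lower with JQ1 with and without PHA.

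The genes whose pattern was most like that of a member were found by the root mean square difference of the log2 FPKM (0.1 added, centred on the mean of each gene) over the 4 libraries, a measure on 4 points. For EGR3 the nearest was CD69, at 0.038, but with 0.1 added to low FPKM the measure understates the difference, since by counts EGR3 was 42.5-fold and CD69 19.4-fold higher with PHA. TRAC, the constant segment of the T-cell receptor alpha chain, was among the 3 nearest to EGR1, EGR2 and EGR3, at 0.95, 0.41 and 0.29. It had 534 counts in DMSO, 286 in JQ1, 7393 in DMSO + PHA and 1582 in JQ1 + PHA. CD69 was also among the 3 nearest to EGR1, at 0.95, and to EGR2, at 0.39, and TRAV8-4, a variable segment of the alpha chain, was nearest to EGR2, at 0.34. The variable segments are alike in sequence, so the counts of TRAV8-4 and TRAV18 are uncertain. For EGR1 the third was ST13P19, a pseudogene that was high with PHA whether or not JQ1 was present, at 0.96, so the nearest genes differed from EGR1 by 0.95 or more.

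NAB1 was within 0.019 to 0.021 of SFMBT2, TECPR1 and a gene known only by its clone name, all of which differed as little as NAB1 did. NAB2 had RP11-613M10.8, ADNP and TRAV18 nearest, at 0.25, 0.26 and 0.29. For NR4A1 they were WSB2, RPRD1B and GPR174, at 0.047, 0.054 and 0.079, and for NR4A3 SORT1, GS1-279B7.2 and RP11-29G8.3, at 0.035, 0.042 and 0.061. SORT1, a sorting receptor, had 665 counts in DMSO, 1257 in JQ1, 2175 in DMSO + PHA and 1152 in JQ1 + PHA, the order of NR4A3 at higher counts. Among the members themselves, on CPM with 0.1 added, NAB2 and NR4A1 differed by 0.35, EGR1 and EGR2 by 0.36 and EGR2 and EGR3 by 0.37, the smallest of the 21 pairs.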

How the data were processed

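RNA was measured by RNA-seq in 1 library for each of 4 conditions, with the groups taken from the labels. For each gene, the authors deposited whole-number read counts without normalization and FPKM, which scale the counts to the library total and to a length of the gene, on GRCh38. The submitters' processing notes name TopHat2 2.0.9 and Cufflinks 2.1.1, while the paper and the extract protocol name Hisat2 2.0.4. The kit is named as stranded in the paper and by another name in the labels. The program that counted, whether it used strand, and the release of the annotation are not given in the sources used here.

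The members and lists of genes were chosen with earlier results of these data known. Ratios of shares of counts are given with 95% exact (Clopper-Pearson) intervals, levels with exact Poisson intervals, and no ratio is given where both libraries had 3 counts or fewer. The deposited FPKM were compared on the log2 scale with 0.1 added, over genes with a mean of at least 1, and genes past 2-fold were counted. A fold on that scale understates the change of low genes. All 9 members were named, and from each list up to 4 genes, 2 by the largest FPKM ratio of DMSO + PHA to DMSO and 2 by that of JQ1 + PHA to DMSO + PHA. Other named genes are marked as chosen after their values were seen, or are the members of a count of 5 or fewer. For members with at least 20 counts in a library, the 3 nearest genes were named. Exon lengths came from GENCODE v44, and promoters from RefSeq. The ratio and its interval were tested on simulated data.

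Scaling factors of the counts came from edgeR 4.0.16 and from DESeq2 1.42.0, which ran in R 4.3.3. All other steps ran in Python 3.11.15, with scipy 1.17.1 for intervals, pandas 2.3.3 and numpy 2.4.6 for tables, and matplotlib 3.10.9 for plots. Alternatives were the pseudocount, the filter, the fold threshold, the scaling, and, added after the data were seen, CPM in place of FPKM.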

Additional observations from a re-analysis of the deposited data

Results flagged for a closer look

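NR4A3 and NAB1 drew attention because the same contrast had opposite directions in different settings, and the difference was not tested, since each condition had 1 library. For NR4A3, the log2 ratio of JQ1 to DMSO was 1.77 without PHA and -1.33 with PHA, and the log2 ratio with PHA was 2.93 in DMSO-treated cells and -0.17 in JQ1-treated cells, the last with an interval that includes 0. For NAB1, the log2 ratio of JQ1 to DMSO was 0.22 without PHA and -0.019 with PHA, the latter also within counting error of 0.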

How the results depend on the processing

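No paired analysis was possible because each condition had 1 library. The number of members past 2-fold depended on the filter and the threshold, since most members have a low FPKM. Without PHA, JQ1 against DMSO gave 0 members, 1 at 1.5-fold (NAB2, with 34.1% of all genes in either direction) and 1 with CPM (NR4A3, with 18.5%). For JQ1 + PHA against DMSO + PHA, the 2 members became 5 with a mean FPKM of at least 0.1, 1 with at least 5, 6 with no filter, 1 at 4-fold and 6 with CPM, beside 18.9%, 8.18%, 8.85%, 2.25% and 16.4% of all genes. For DMSO + PHA against DMSO, the 2 became 6, 1, 7, 1 and 6 in the same order, beside 8.96%, 1.82%, 5.09%, 0.713% and 4.64%. For JQ1 + PHA against JQ1, the 2 became 4, 1, 4, 1 and 4 in that order, beside 6.88%, 1.19%, 4.05%, 0.469% and 3.0%, and 1 with a pseudocount of 1, beside 0.991%. The causes were not tested, beyond the filter itself, which sets how many members can be counted. Of 252 log2 ratios of single members under another pseudocount or scaling, 15 moved by more than the counting interval reaches on its longer side. Of these 15, 10 were with a pseudocount of 1. The other 237 include the ratios of members that had no counting interval. Of the ratios past 2-fold, 0 turned direction. The ratio of NAB1 for JQ1 + PHA against DMSO + PHA, close to 0, did so when centred on the median gene and with TPM, TMM factors or DESeq2 size factors. All 21 ratios of both PHA changes under TMM factors, DESeq2 size factors or with nothing added to the counts stayed below 0, and the largest shift was 0.247. Depth limits EGR2, EGR4, NR4A2 and NR4A3 most, and without replicates no interval covers the spread between cultures.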

Other observations

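The other nuclear receptors were mostly low in these cells. Of 45, 13 passed the FPKM filter and 12 had no count in any library. With PHA in DMSO-treated cells ESRRA was past 2-fold and higher, against 2.1% of all genes, with 153 counts with DMSO and 349 with DMSO + PHA. RARA, a retinoic acid receptor, NR1D1, a receptor of the circadian clock, and NR2F6, which is known to restrain T-cell cytokine genes, were past 2-fold and lower with JQ1, both without and with PHA, where 8.65% and 8% of all genes were. RARA had 282 counts in DMSO, 101 in JQ1, 289 in DMSO + PHA and 112 in JQ1 + PHA. NR1D1 had 268, 84, 307 and 101 counts in the same order, and NR2F6 had 127, 46, 90 and 25. Without PHA, RORA, a retinoic acid-related orphan receptor, was past 2-fold and higher with JQ1, against 5.22% of all genes, with 837 counts in DMSO and 2667 in JQ1. In JQ1-treated cells it was past 2-fold and lower with PHA, with 369 counts in JQ1 + PHA, and it had 733 in DMSO + PHA. The share of all genes that were lower with PHA in JQ1-treated cells was not computed.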
